A study of Rattus norvegicus with 4 samples.

Results

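The 6 genes described here carry or answer the hormone signals that set glucose output by the liver. They are the receptors Gcgr and Nr3c1, the hormone-responsive genes Sgk1, Trib3 and Pck1, and the fructose enzyme gene Khk. They were chosen by gene symbol, as the spots annotated with exactly 1 of these symbols, which gave 11 of 1648 gene spots and 6 of 958 named genes. Sgk1 had 4 spots, Nr3c1 had 3, and Gcgr, Trib3, Pck1 and Khk had 1 each.

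The liver RNA came from male Sprague-Dawley rats weighing 250 to 300 g. One group was injected intraperitoneally with alpha-naphthylisothiocyanate (ANIT), a toxicant of bile duct epithelium that causes cholestasis, at 75 mg/kg from a 7.5 mg/mL solution in olive oil. The control group received an equal volume of the oil. At 12 h, 3 rats per treatment were killed, and the RNA of their right lateral liver lobes was pooled within each treatment. Poly(A) RNA of both pools was labelled and hybridised together on 4 spotted cDNA arrays. The ANIT pool carried the red dye Cy5 on arrays 1 and 3 and the green dye Cy3 on arrays 2 and 4. The labels name no separate pools for the arrays, so errors and p-values cover the variation of hybridisations of pooled RNA, and none of that between rats. Ratios hold no expression level, so the tissue could not be checked against liver markers.

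Glucagon is the hormone of fasting. It binds Gcgr, a G protein-coupled receptor of hepatocytes, which raises cyclic AMP, activates protein kinase A and, through the transcription factor CREB, switches on genes of gluconeogenesis such as Pck1. Glucocorticoids bind Nr3c1, a receptor that moves to the nucleus and acts on genes such as Pck1 and Sgk1, and the insulin signal opposes both hormones. Trib3 encodes a pseudokinase that binds the insulin-signalling kinase AKT and is induced by fasting and by endoplasmic reticulum stress. Khk encodes ketohexokinase, which phosphorylates fructose and so brings it into the pathways that make glucose and fat.

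RefSeq start-site windows of the GRCr8 rat assembly, 250 bases before to 50 after a start, are shown for 3 members that differ in their role. Gcgr is the receptor that passed the test below, and Pck1 and Trib3 are hormone-responsive genes that did not. Capitals mark matches to the letters searched on both strands. These were the cyclic AMP response element TGACGTCA, its variant TTACGTCA and its 5-base core CGTCA, the palindromic glucocorticoid response element (AGAACA, any 3 bases, TGTTCT) and its single arm AGAACA, the TATA letters TATAAA, and TGATGCAA, a site of stress-induced ATF4. The core lies inside both longer forms, so these matches overlap.
Pck1, chr3:182348322-182348621, plus strand: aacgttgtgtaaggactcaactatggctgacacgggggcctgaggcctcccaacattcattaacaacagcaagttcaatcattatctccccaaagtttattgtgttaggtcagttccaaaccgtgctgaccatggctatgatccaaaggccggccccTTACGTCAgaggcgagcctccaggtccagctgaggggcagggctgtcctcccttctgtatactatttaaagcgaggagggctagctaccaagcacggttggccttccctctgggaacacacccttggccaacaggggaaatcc
Trib3, chr3:161275484-161275783, minus strand: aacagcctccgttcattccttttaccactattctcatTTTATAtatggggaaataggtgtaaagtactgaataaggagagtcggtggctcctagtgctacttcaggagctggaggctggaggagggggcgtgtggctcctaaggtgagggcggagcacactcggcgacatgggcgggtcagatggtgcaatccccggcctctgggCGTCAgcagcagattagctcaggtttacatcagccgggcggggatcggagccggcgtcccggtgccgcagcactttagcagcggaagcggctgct
Gcgr, downstream start, chr10:106307346-106307645, plus strand: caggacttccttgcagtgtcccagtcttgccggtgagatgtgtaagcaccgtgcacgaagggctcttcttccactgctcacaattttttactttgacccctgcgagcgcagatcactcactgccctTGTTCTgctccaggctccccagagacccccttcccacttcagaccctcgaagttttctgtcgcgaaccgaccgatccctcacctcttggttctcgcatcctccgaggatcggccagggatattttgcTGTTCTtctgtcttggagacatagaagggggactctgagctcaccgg
The Pck1 window held TTACGTCA, which occurred in 0.807% of 33469 windows of this length. The Trib3 window held the core CGTCA, found in 21.2% of windows, and TATAAA on its reverse strand, found in 14.2%. The Gcgr window held the arm AGAACA 2 times, both on the reverse strand, and 20.7% of windows held it at least 1 time. RefSeq lists a further Gcgr start upstream, whose window held none of the letters searched and is not shown. All 6 members were searched, over 10 windows. Those of Sgk1 held at most TATAAA, and those of Khk and Nr3c1 held no match. The genes shown were thus the only members with a cyclic AMP or glucocorticoid match. The arrays measured no binding to these windows, and these letters say nothing of which factors act there.

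Each value is the log ratio of both pools at 1 spot, minus the median over the gene spots of that array. The sources give neither a numerator nor a base of the logarithm. Sizes are therefore in log units, and a gene is called positive or negative relative to the median gene spot. A pair of quantities was taken from the 4 arrays of each gene. The mean of the arrays compares the pools if all arrays hold the same treatment as numerator. The dye component is the average of arrays 1 and 3 minus that of arrays 2 and 4, divided by 2, and compares the pools if all arrays hold the same dye as numerator. Over gene spots, r was 0.95 between arrays 1 and 3 and between arrays 2 and 4, and -0.91 to -0.88 between arrays that differed in orientation. The sample labels list the ANIT pool as channel 2 on every array, whatever its dye, but do not say which channel is the numerator. No source thus settles which quantity is the treatment comparison, so both are given for every member. The array medians before centring lay between -0.77 and 0.32.

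The 11 spots followed 3 patterns. At 8 of them the dye orientations lay apart, as they did at 93.4% of all gene spots. At the Pck1 spot and at Nr3c1 probe 2, the name used here for the second of its spots, the orientations overlapped close to the array median. At the Khk spot the arrays of 1 orientation disagreed with each other.

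**Figure D1:**
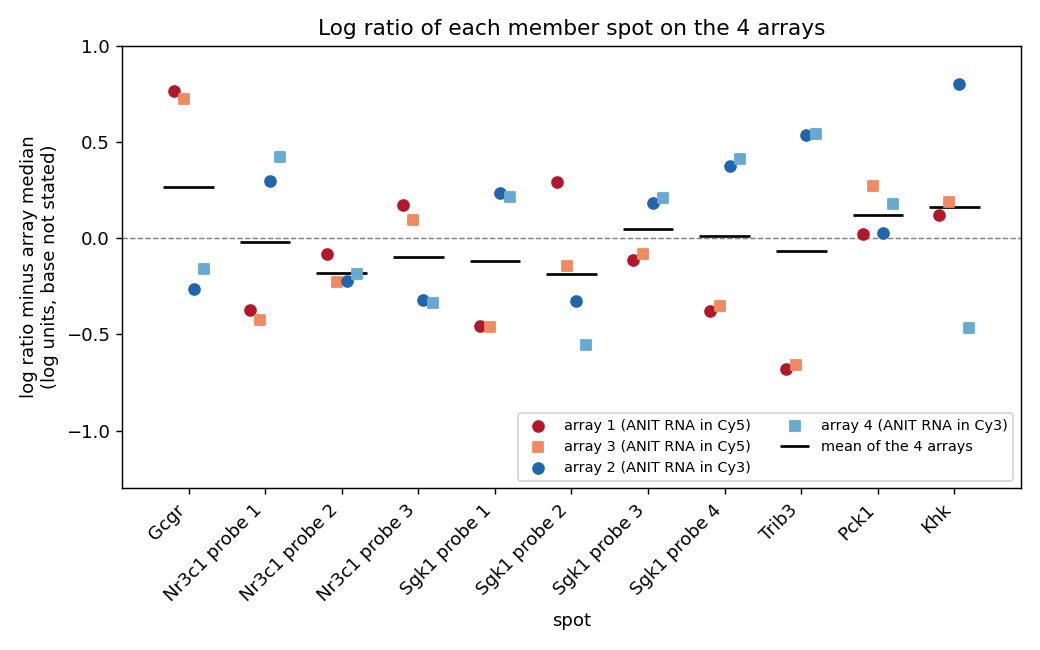
Log ratio minus the array median (y axis, log units of unstated base) for the 11 spots of the 6 genes (x axis). Points are single arrays, coloured by the dye of the ANIT RNA, and black lines are means of the 4 arrays. Gcgr sits at 0.77 and 0.73 on arrays 1 and 3 and at -0.26 and -0.16 on arrays 2 and 4, and Khk at 0.80 on array 2 against -0.46 on array 4.

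Among the receptors, Gcgr passed the test relative to the median gene spot and was the 1 member of 6 whose mean of the arrays did so. The value of Gcgr rests on 1 spot, so its SE holds no variation between spots of the same gene. Its log ratio was 0.77, -0.26, 0.73 and -0.16 on arrays 1 to 4. Arrays 1 and 3 differed by 0.042 and arrays 2 and 4 by 0.10, and the orientations did not overlap. The mean of the arrays was 0.27 ± 0.041 (SE, n = 4 arrays, 95% interval 0.17 to 0.36), with an adjusted p of 0.00831 in limma with a dye term for each gene. By this mean Gcgr ranked 9 from the positive end of 1174 features, which are named genes and unnamed spots. By its dye component it ranked 188 from that end. In that fit 46 of 1174 features passed, or 3.92%, with 1.62% positive and 2.30% negative. If all arrays hold the same treatment as numerator, this mean, read as a base 2 logarithm, is a 1.20-fold difference between the pools. Read as a natural logarithm it is 1.31-fold and read as base 10 1.85-fold.

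The position of 0 and the dye term bear on this call. At each of 4 removals of 1 array Gcgr stayed positive, with means between 0.24 and 0.29. Each removal left 1 array in an orientation. Without array 2 or array 4 the SE was 0.063 for every member alike, so those fits did not use the spread of Gcgr itself. With values as deposited, where the median over the gene spots' mean ratios was -0.21, Gcgr was at 0.051 (adjusted p = 0.208 in limma). Without the dye term its SE was 0.24 and it did not pass, as was so for all 1174 features, of which 5 had an unadjusted p under 0.05 in limma. The dye term was chosen with it known that no feature passed without it. The dye component of Gcgr was 0.48 ± 0.041 (adjusted p = 4.27e-06 in limma), where 86.5% of features passed and 40.6% did so on the positive side. Gcgr was thus on the positive side of the median gene spot in both quantities, although as deposited its dye component was -0.045.

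Nr3c1, the glucocorticoid receptor, did not pass. Averaged over its 3 spots it was at -0.095, -0.082, -0.19 and -0.034 on arrays 1 to 4. All 4 arrays were negative, and the orientations overlapped. Such agreement of all 4 arrays was seen for 2.81% of features. The mean was -0.099 ± 0.041 (SE, n = 4 arrays, 95% interval -0.19 to -0.0060), with an adjusted p of 0.264 in limma. The dye component was -0.042 ± 0.041 (adjusted p = 0.359 in limma).

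That average joined spots that behaved differently between the dyes. Nr3c1 probe 1 was at -0.38, 0.30, -0.43 and 0.42 on arrays 1 to 4, and probe 3 at 0.17, -0.32, 0.093 and -0.34, so the signs of the orientations were opposite at these spots. Their dye components were -0.38 and 0.23. Probe 2, at -0.084, -0.22, -0.23 and -0.18, was negative on every array, as 2.06% of gene spots were on 1 side throughout, and had a dye component of 0.023. The agreement of the averaged gene over arrays therefore holds at probe 2, while within probes 1 and 3 the orientations had opposite signs. Dye components of 8 of the 11 member spots passed on their own, against 89.0% of all gene spots.

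The means of the 3 Nr3c1 spots were -0.021, -0.18 and -0.098. With every spot tested on its own, where 5.28% of 1648 spots passed, probe 2 passed narrowly at -0.18 ± 0.047 (adjusted p = 0.0484 in limma). It lay in print block 3 of 16, whose gene spots had the lowest median mean of all blocks, -0.062. The 5 gene spots beside it were all negative, between -0.15 and -0.035. With each block centred on its own median, an alternative added after the values were seen, the spot was at -0.13 (adjusted p = 0.152 in limma).

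Among the hormone-responsive genes, Sgk1, Trib3 and Pck1 did not pass in the mean of the arrays. Sgk1 encodes a serum- and glucocorticoid-induced kinase that controls ion channels and transporters. Averaged over 4 spots it was at -0.17, 0.12, -0.26 and 0.070 on arrays 1 to 4, with orientations apart and of opposite sign. Its mean was -0.060 ± 0.041 (SE, n = 4 arrays, 95% interval -0.15 to 0.033, adjusted p = 0.502 in limma).

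The Sgk1 spots also differed from each other. Sgk1 probe 1 was at -0.46, 0.23, -0.46 and 0.21 on arrays 1 to 4, and probe 4 at -0.38, 0.38, -0.35 and 0.41. The dye components of these spots were close, -0.34 and -0.38, while their means were -0.12 and 0.013. Probe 3 followed the same signs at -0.12, 0.18, -0.080 and 0.21. Probe 2, at 0.29, -0.33, -0.15 and -0.55, had the opposite order of the orientations, and its arrays 1 and 3 lay on opposite sides of 0. In print block 3, which holds probe 2, array 1 exceeded array 3 by a median of 0.22, the widest such gap of the 16 blocks. This block also had the lowest median mean, -0.062. The mean of probe 2 was -0.18, and -0.13 with each block centred on its own median.

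The means of the Sgk1 spots were -0.12, -0.18, 0.049 and 0.013 in order, 2 negative and 2 positive, and 0 of 4 passed on their own in limma. The SD over spots was 0.11 for Sgk1 and 0.080 for Nr3c1. Over the 340 genes with several spots the median SD was 0.051. The average dye component of Sgk1, -0.15 ± 0.041, passed (adjusted p = 0.00643 in limma). It was -0.065 with print blocks centred and -0.094 with arrays centred on all spots, and did not pass in either setting.

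Pairs of spots of the same gene were compared directly, an analysis added after the values were seen. Nr3c1 gave 3 pairs and Sgk1 gave 6. In the mean of the arrays 0 of these 9 pairs differed in limma, where 2.72% of 699 pairs over all genes did. Before adjustment 5 of 9 had a p under 0.05 in limma. The share of all pairs at that level was not counted, and pairs of the same gene share spots. This count therefore cannot be called high or low. The widest gap was -0.23 between Sgk1 probes 2 and 3, with a 95% interval from -0.42 to -0.042 (adjusted p = 0.209 in limma). In the dye component 8 of 9 pairs differed, where 64.5% of all pairs did. The exception was Sgk1 probes 1 and 4, which differed by 0.038 (adjusted p = 0.543 in limma).

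Trib3 was at -0.68, 0.54, -0.66 and 0.54 on arrays 1 to 4. Arrays of the same orientation lay within 0.022 of each other and the orientations were far apart. Its mean was -0.065 ± 0.039 (SE, n = 4 arrays, 95% interval -0.15 to 0.025, adjusted p = 0.443 in limma). Its dye component, -0.60 ± 0.039, was the largest among the members in size and passed (adjusted p = 1.35e-06 in limma), as did 86.5% of all features. By size it ranked 221 of 1174 features. If all arrays held the same dye as numerator, Trib3 would therefore be the member farthest from the median gene spot, on the side opposite to Gcgr. The opposite side depends on the centring. As deposited, the dye component was -1.13 for Trib3 and -0.045 for Gcgr, both negative.

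Pck1 encodes the cytosolic phosphoenolpyruvate carboxykinase, which catalyses a committed step of gluconeogenesis. It was at 0.020, 0.027, 0.27 and 0.18 on arrays 1 to 4. All 4 arrays were positive and the orientations overlapped, unlike those of most spots. Its mean was 0.12 ± 0.053 (SE, n = 4 arrays, 95% interval 0.0038 to 0.24, adjusted p = 0.280 in limma), and as deposited it was -0.092. Its dye component was 0.022 ± 0.053 (adjusted p = 0.704 in limma) and -0.14 with print blocks centred (adjusted p = 0.0124 in limma). Neither quantity thus passed with arrays centred on their median.

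Khk had the least precise value of the 6 genes. It was at 0.12, 0.80, 0.19 and -0.46 on arrays 1 to 4. Arrays 1 and 3 lay close together, while arrays 2 and 4, of the same orientation, lay on opposite sides and differed by 1.27. That was the widest gap between arrays of the same orientation among all 1174 features, whose median was 0.14 for the wider of both gaps. The mean was 0.16 ± 0.16 (SE, n = 4 arrays, 95% interval -0.20 to 0.52, adjusted p = 0.653 in limma). The dye component was -0.0072 ± 0.16 (adjusted p = 0.966 in limma). Without array 4 the mean was 0.48 and without array 2 it was -0.16, so that single arrays decided its side.

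Spots near Khk on the arrays shared this gap. In deposited order the 121 spots of a print block can be read as 11 rows of 11, a layout that no source states. Read so, Got1, which encodes the cytosolic aspartate aminotransferase, stood next to Khk in print block 6, and Igfbp4, an insulin-like growth factor binding protein gene, stood next to Got1. Array 2 exceeded array 4 by 1.20 at Got1, 0.95 at Igfbp4 and 0.35 at Camk2b on the other side of Khk. Over the 8 gene spots around Khk the median of this difference was 0.32, with a range from -0.084 to 1.20. Over all gene spots the SD of the difference was 0.17. Got1, at -0.060, 0.70, -0.31 and -0.50 on arrays 1 to 4, was also the gene most like Khk. The part of location on the slide in the Khk values was not tested.

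**Figure D2:**
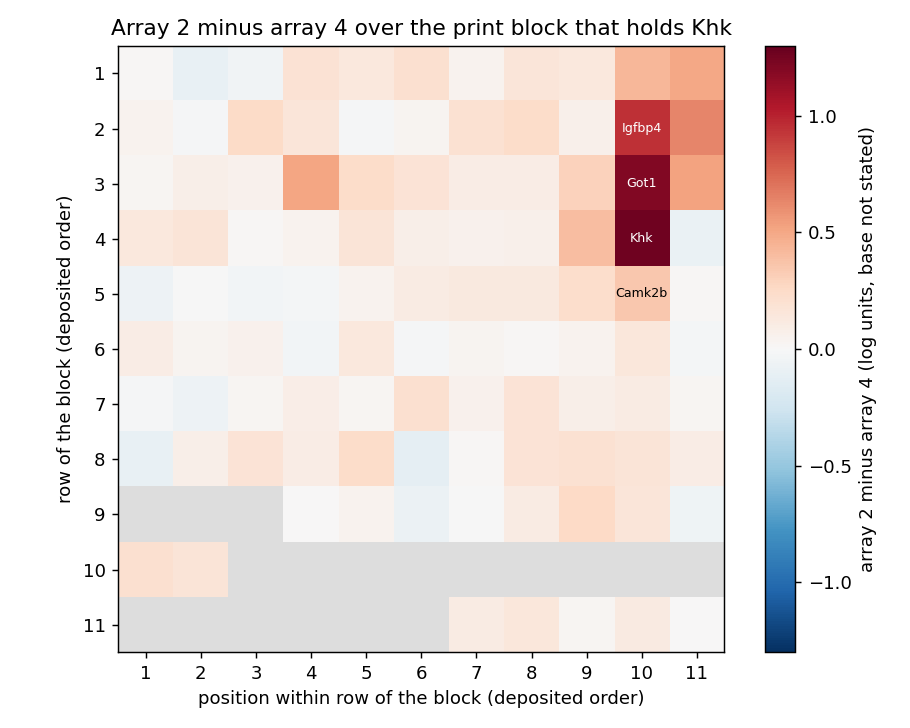
Array 2 minus array 4 (colour, log units of unstated base) for the gene spots of the print block that holds Khk, with the 121 spots in deposited order read as 11 rows (y axis) of 11 (x axis). Grey cells are control positions. Khk at 1.27, Got1 at 1.20 and Igfbp4 at 0.95 stand one above the other, and Camk2b is at 0.35.

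For the mean of the arrays, the order of the genes from the positive end was Gcgr at 0.27, Khk at 0.16, Pck1 at 0.12, Sgk1 at -0.060, Trib3 at -0.065 and Nr3c1 at -0.099. The intervals of neighbours in that order overlapped in each case. Before adjustment 3 of 6 genes, Gcgr, Nr3c1 and Pck1, had a p under 0.05 in limma, where 16.9% of all features did, and after adjustment 1 did. For the dye component 3 of 6 passed, with Gcgr positive and Sgk1 and Trib3 negative, against 86.5% of all features. That count depended on where 0 was set. Centred on Actb and Hprt1, 6 of 6 passed, against 85.7% of features, with Gcgr at 0.26 and the others negative, among them Nr3c1 at -0.26 and Khk at -0.22. In that fit the SE of Khk was 0.090, against 0.16 with arrays centred on their median. The SE of every other member lay between 0.059 and 0.060, so that fit made little use of the spread of each gene itself. With values as deposited 5 of 6 passed, against 80.9% of features, all negative, with Nr3c1 at -0.57 and Khk at -0.53. Centred on all spots 2 of 6 passed, Gcgr and Trib3.

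**Figure D3:**
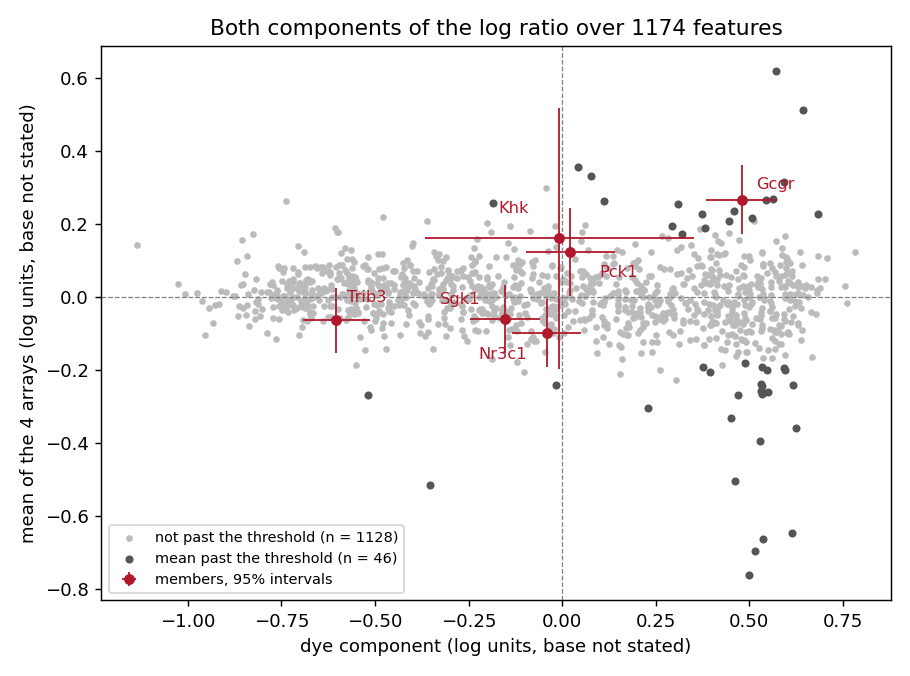
Mean of the 4 arrays (y axis) against the dye component (x axis), both in log units of unstated base, for 1174 features. Dark points are the 46 features whose mean passed the threshold, and the 6 genes are red with 95% intervals. Gcgr lies at 0.48 and 0.27, Trib3 at -0.60 and -0.065, and the interval of Khk is the widest of the 6.

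The picture of the other measured genes of these pathways depended on which quantity is the comparison. Over 8 lists there were 65 distinct genes beside the 6. In the mean of the arrays 3 of them passed, 1 positive and 2 negative, which is 4.62% beside 3.92% of all features. An unadjusted p under 0.05 in limma was found for 11, or 16.9%, the same share as over all features. Their median was -0.0057, beside 0.0042 for all features, of which 47.4% were below 0. In the dye component 55 of the 65 passed, 32 positive and 23 negative, which is 84.6% beside 86.5% of all features. Values below are means of the arrays unless the dye component is named.

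In the glucagon receptor list 0 of 6 other measured genes passed in limma, and 1 had an unadjusted p under 0.05. That was Prkar1a, a regulatory subunit of protein kinase A, at -0.12 ± 0.042 (adjusted p = 0.158 in limma). Gnas, the stimulatory G protein subunit that couples Gcgr to cyclic AMP, was at -0.070. Other receptors were nearer to 0 than Gcgr, with Avpr1a for vasopressin at 0.064, Glp1r for the related peptide GLP-1 at 0.039 and the adrenergic receptor Adra1b at 0.029. Whether Gcgr differed from them was not tested. Of these 6, 4 passed in the dye component, all on the positive side as Gcgr was, with Prkar1a at 0.49 and Gnas at 0.48.

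In the glucocorticoid receptor list 0 of 6 others passed in limma and 0 had an unadjusted p under 0.05. They ranged from -0.051 for Nr3c2, the mineralocorticoid receptor, to 0.050 for the corepressor Ncor1. Hsd11b1, the enzyme that activates glucocorticoid inside liver cells, was at 0.045. The dye component passed for 4 of 6, 1 positive and 3 negative, and Hsd11b1 was at -0.57. In the broader list of nuclear receptors 1 of 14 others passed. This was Nr0b2, the repressor SHP, at 0.24 ± 0.041 (adjusted p = 0.0132 in limma), while the lowest was the oxysterol receptor Nr1h2 at -0.12. The dye components of 11 of the 14 passed, 6 positive and 5 negative, with Nr0b2 at 0.46 and Nr1h2 at 0.57.

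Among 6 other hormone-responsive genes 1 passed, Mt1, which encodes a metal-binding metallothionein that glucocorticoids and metals induce. Mt1 was at -0.14, -1.25, -0.22 and -1.18 on arrays 1 to 4, with a mean of -0.70 ± 0.041 (adjusted p = 4.42e-05 in limma). All 4 arrays were negative, so that the mean was on the side opposite to Gcgr, whereas the dye component of Mt1, 0.52, was on the same side as that of Gcgr. Igfbp1, an insulin-like growth factor binding protein induced by glucagon and glucocorticoid, was at 0.091 ± 0.042 and the phosphatase gene Dusp1 at -0.049 ± 0.039, and neither passed. Of the 6, 5 passed in the dye component, 4 positive and 1 negative.

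In the list of gluconeogenesis and glucose release 0 of 8 others passed in limma, and 3 had an unadjusted p under 0.05. Pgk1, Eno1 and Pgam1 encode enzymes that serve both glucose breakdown and glucose synthesis. Pgk1 was the largest at 0.16 ± 0.039 (adjusted p = 0.0715 in limma), with Eno1 at 0.12 and Pgam1 at 0.11. The glucose transporter gene Slc2a2 was at -0.087. Got1, with the gap between arrays 2 and 4 described above, was at -0.042 ± 0.15. The dye component passed for 6 of 8, all positive, with Pgk1 at 0.47, Pgam1 at 0.68 and Slc2a2 at 0.55.

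Of 12 other genes of fructose, glycolysis and glycogen 0 passed in limma and 1 had an unadjusted p under 0.05. It was the hexokinase gene Hk1 at 0.14 ± 0.052 (unadjusted p = 0.0253 in limma). Gckr, which encodes the protein that holds glucokinase in the nucleus and responds to fructose phosphate, was at -0.0085, Pklr, the liver pyruvate kinase gene, at 0.061 and Gys2, the liver glycogen synthase gene, at 0.013. The dye components of 11 of the 12 passed, 5 positive and 6 negative, with Hk1 at -0.40 and Gckr at 0.43.

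On the insulin side 0 of 11 genes passed in limma, 2 had an unadjusted p under 0.05 and 8 were below 0. The largest was the growth factor Igf1 at -0.15 ± 0.041 (adjusted p = 0.0905 in limma), and Irs1, an adaptor of the insulin receptor, was at -0.13 ± 0.046. Of the 11, 10 passed in the dye component, 4 positive and 6 negative, with Igf1 at 0.49.

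Of 5 stress genes listed beside Trib3 1 passed, Xbp1, whose product switches on chaperone genes when unfolded proteins gather in the endoplasmic reticulum, at -0.20 ± 0.045 (adjusted p = 0.0425 in limma). Asns at -0.017 and Ddit3 at -0.040, which share with Trib3 induction by ATF4, did not pass, nor did Calr at -0.0011 or Eif2s1 at -0.0090. In the dye component all 5 passed. Asns at -0.40 and Eif2s1 at -0.44 were on the side of Trib3, and Xbp1 at 0.39, Calr at 0.41 and Ddit3 at 0.53 on the opposite side.

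**Figure D4:**
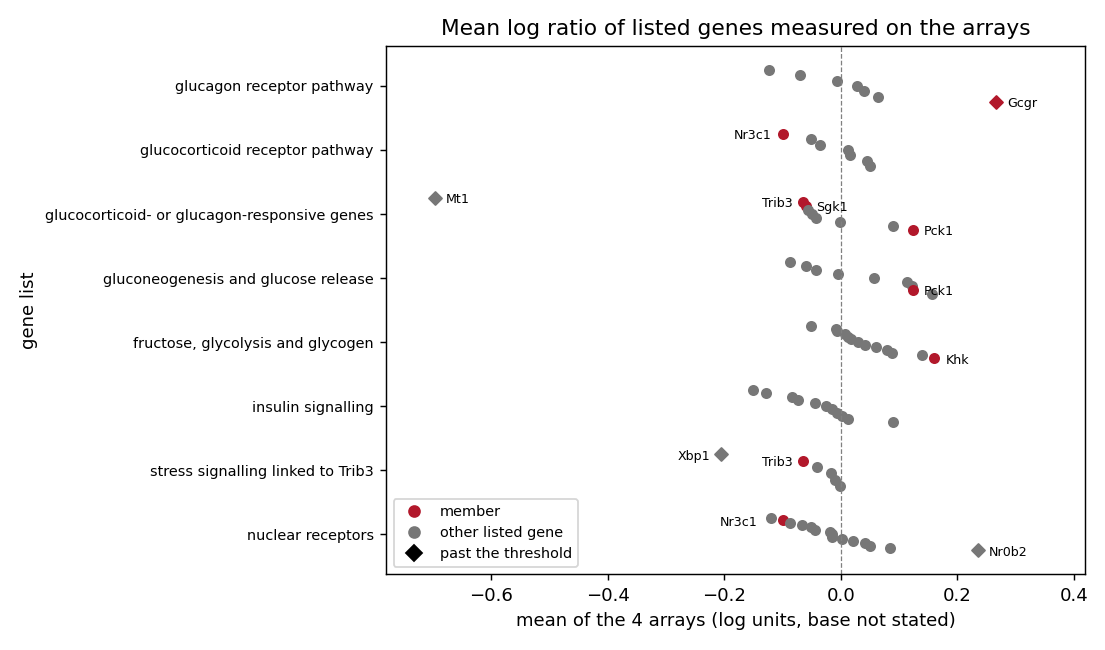
Mean of the 4 arrays (x axis, log units of unstated base) for the measured genes of 8 lists (y axis), with the 6 genes in red, other genes in grey and diamonds for those past the threshold. The dye component is not drawn. Gcgr at 0.27, Nr0b2 at 0.24, Xbp1 at -0.20 and Mt1 at -0.70 are the diamonds, and the other genes lie between -0.15 and 0.16.

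The genes most like each member were those with the smallest distance over the 4 centred array values, among 957 other named genes. For Gcgr they were Nr0b2 at a distance of 0.097, the fatty acid synthase gene Fasn at 0.17 and Pgk1 at 0.23. Nr0b2 was at 0.67, -0.27, 0.72 and -0.18 on arrays 1 to 4, close to Gcgr on each array. For Trib3 they were Fer at 0.048, Cd52 at 0.070 and Igfbp5 at 0.11. For Nr3c1 they were Dlk1, Col6a1 and Madd, all within 0.073, for Sgk1 they were Crp, Alpl and Terf1, all within 0.086, and for Pck1 they were Cd53, Gtf2b and Prss2, all within 0.17. For Khk the nearest, Got1, was at a distance of 0.54, farther than any gene named here for the other members.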

How the data were processed

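The study compared liver RNA of ANIT-treated and oil-treated rats on 4 cDNA arrays, each hybridised with both dyes, which form 1 group. The deposited file holds a log ratio for each of 1936 spots on each array, with 0 missing. The authors' background correction, normalization, base of the logarithm and direction are not stated by the labels or the file. No brightness came with the ratios, so how far a spot stood above background is unknown. The number of arrays, 4, limits the precision.

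Spots lie in 16 blocks of 121. At 18 positions per block no block had an annotated spot, and these 288 spots were treated as controls and left out. Of the 1648 gene spots, 1432 had 1 gene symbol in the platform annotation, and 1429 of those matched RefSeq by Entrez identifier. Spots of 1 symbol were averaged, and 216 others were kept unnamed, giving 1174 features. The median over gene spots was subtracted on each array.

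The lmFit and eBayes functions of limma 3.58.1 in R 4.3.3 gave two-sided tests with an intercept and a dye orientation term per feature and 2 residual degrees of freedom. P-values were adjusted by Benjamini-Hochberg over all features, with a threshold of 0.05, and 95% intervals use the moderated SE. The fit was tested on simulated data. The members, lists, fit and alternatives were chosen with earlier results of these data known. In those results a fit without the dye term had called no feature. Named beside the members were up to 4 genes past the threshold per list, or else its largest, and the 3 nearest genes per member. Other genes were named after their values were seen. Alternatives were no dye term, 5 other scalings, single probes, 2 other eBayes settings, each array left out and the sign of arrays 2 and 4 turned. Windows come from RefSeq on GRCr8, found for all 6 members. Figures used matplotlib 3.10.9.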

Additional observations from a re-analysis of the deposited data

How the results depend on the processing

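For the mean of the arrays 46 features passed. The count was 0 without the dye term, 1061 with values as deposited, 87 with every probe on its own, 73 with every probe on its own and print blocks centred (added after the values were seen) and 1015 with the sign of arrays 2 and 4 turned. With 1 array left out it lay between 28, without array 3, and 86, without array 2. Of the calls 41.3% were positive, but 0.377% as deposited, 51.8% with equal spread on each array and 30.9% when centred on Actb and Hprt1. The dye component passed at 1015 features, and at 950 to 1023 under the 11 alternatives that kept spots averaged. Gcgr passed with a positive mean in each alternative that kept every array, except no dye term and values as deposited. With 1 array left out its mean stayed between 0.24 and 0.29, and that of Khk was 0.48 without array 4. As deposited, Nr3c1 at -0.31, Sgk1 at -0.28 and Trib3 at -0.28 passed and Gcgr did not. Each log ratio already pairs both pools on 1 array, and no further pairing between arrays was made.

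These values of members changed side. In the mean of the arrays, Pck1 was at -0.092 and Khk at -0.054 as deposited, and Khk at -0.16 without array 2 and -0.0072 with the sign of arrays 2 and 4 turned. Sgk1 probes 3 and 4 on their own were at 0.049 and 0.013, and with print blocks centred Sgk1 probe 3 was at 0.043 and Nr3c1 probe 1 at 0.028. In the dye component, as deposited Gcgr was at -0.045 and Pck1 at -0.50. Centred on all spots, Nr3c1 was at 0.018 and Khk at 0.052. Pck1 was at -0.14 with print blocks centred, on averaged spots and single probes alike, and at -0.19 when centred on Actb and Hprt1. On their own, Nr3c1 probes 2 and 3 were at 0.023 and 0.23 and Sgk1 probe 2 at 0.26, and with print blocks centred these were at 0.12, 0.10 and 0.35. With 1 array left out, the mean of Khk lay between -0.16 and 0.48, its dye component between -0.32 and 0.31 (0.0089 without array 1), and the dye component of Pck1 between -0.041 and 0.084 (-0.015 without array 2). The cause was not tested beyond what each setting itself changes.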

Other observations

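Features past the threshold were unevenly spread over the dye component, with limits chosen after the values were seen. Of 341 features with a dye component above 0.3, 37 passed in the mean of the arrays (10.9%), among them Gcgr. Of 429 between -0.3 and 0.3, where Nr3c1, Sgk1, Pck1 and Khk lay, 7 passed (1.63%). Of 404 below -0.3, where Trib3 lay, 2 passed (0.495%). The SD of the mean over features was 0.14, 0.082 and 0.067 in this order, and the median residual SD of a feature was 0.060, 0.079 and 0.095. Spot brightness was not available, so its part in this was not tested.

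Markers of liver cell types were read for the same arrays in the mean of the arrays. Of 6 hepatocyte markers 5 were positive and 1 negative, the apolipoprotein gene Apoa1 at -0.095. In limma 2 passed, the plasma carriers Ttr at 0.23 and Tf at 0.19, on the side of Gcgr. Of 2 bile duct markers, 1 myeloid or lymphoid marker and 5 endothelial, stellate and fibroblast markers 0 passed, and 1 of these, Fcgr2b at -0.12, had an unadjusted p under 0.05. These 8 genes lay between -0.12 and -0.010, where 47.4% of all features were below 0. In the dye component 7 of the 8 passed, 2 positive, Fcgr2b at 0.25 and Vim at 0.46, and 5 negative, down to -0.75 for Spp1. Of the hepatocyte markers 5 of 6 passed there, 4 positive, with Ttr at 0.37, Tf at 0.38 and Apoa1 at 0.57, and 1 negative, Serpina1 at -0.31. The part of cell composition in the values of the 6 genes was not tested, and in pooled tissue RNA fewer cells of a type and less RNA per cell cannot be told apart.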
